A study of Mus musculus with 9 samples.

Results

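The bone morphogenetic protein (BMP) pathway was followed through 10 genes of 55536 counted in mouse hippocampus, chosen by symbol: the ligands Bmp3, Bmp2, Bmp4, Bmp6 and Bmp7, the receptors Bmpr1a and Bmpr2, and the target genes Id1, Id2 and Id3. The list was drawn up around Bmp3, a gene already known from these libraries to stand higher in transgenic mice at 24 weeks than in non-transgenic mice. The values of that comparison are therefore given as a description. All 10 genes passed the filter on low counts, which kept 17457 genes.

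RNA came from whole hippocampus of hAPP-J20 mice (Tg), a line that expresses a human amyloid precursor protein with the Swedish and Indiana mutations under the PDGF-B promoter, mainly in neurons, and of wild-type mice (nTg). The series set 15 weeks of age, before plaques, against 24 weeks, when plaques are present, with 3 Tg libraries at each age, 2 nTg libraries at 24 weeks and 1 at 15 weeks. Library names such as Tg_24w_3 give genotype, age and replicate. Comparisons of Tg at either age with nTg pool the nTg libraries of both ages unless same-age controls are named. Part of the nTg libraries therefore differ from the Tg libraries in age and batch as well. No drug or other agent is named in the labels. Each library's batch label repeats its age; the effects of batch and of age cannot be told apart. The titles call the libraries biological replicates and give no animal numbers.

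BMPs are secreted proteins of the transforming growth factor beta superfamily. They bind pairs of type I and type II serine/threonine kinase receptors on the cell surface, which phosphorylate Smad1, Smad5 and Smad9; these enter the nucleus with Smad4 and switch on genes, the Id genes among the most direct. Id proteins have a helix-loop-helix domain without a DNA-binding region and hold basic helix-loop-helix factors away from DNA. In the dentate gyrus of the hippocampus BMP signalling is known for keeping neural stem cells quiescent, and secreted antagonists such as noggin oppose it. Bmp3 is the odd one among the ligands, since in mouse bone it opposes the action of other BMPs.

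Total counts per library lay between 12733452 (Tg_24w_3) and 21529266 (Tg_15w_3). Levels below are read counts scaled to library size, in CPM after TMM scaling, and TPM, which also divide by transcript length, as the authors deposited them, where genes are compared with each other. Mouse App did not separate the genotypes (804 to 1542 CPM in Tg, 1023 to 1501 CPM in nTg), so the labels were taken as given. Markers of dentate granule cells (10 of 10) and of pyramidal cells (10 of 10) were counted in every library, as the tissue label requires. Tg_24w_3 stood apart, at 84.6 on a first principal component that held 37.1% of the variance, with the other 8 libraries between −30.9 and 4.87. Libraries of 1 group differed in the genes that mark sex. Tg_24w_3 had 83.1 CPM of Xist, the RNA of the inactive X chromosome, and 0 of the Y-linked Ddx3y, while Tg_24w_1 and Tg_24w_2 had 51.9 and 28.1 CPM of Ddx3y and at most 0.101 CPM of Xist. Tg_15w_1, Tg_15w_3 and nTg_24w_3 showed the pattern of Tg_24w_3, and Tg_15w_2 and nTg_15w_2 that of the other 2. In nTg_24w_1 both Xist (7.34 CPM) and Ddx3y (39.0 CPM) were counted. By these genes Tg_24w_3 differed from the rest of its group in sex as well; for the 10 genes, the values that it or nTg_24w_1 moved most are also given without them.

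Per transcript length, the Id genes were the most abundant of the 10 and the ligands the least. Id2 had a mean of 84.1 ± 6.32 TPM (SD, n = 9), Id3 54.6 ± 25.2 TPM and Id1 37.5 ± 11.3 TPM. Bmpr2 stood at 21.1 ± 3.70 TPM and Bmpr1a at 19.3 ± 2.78 TPM. The ligands followed, with Bmp6 at 6.85 ± 2.07 TPM, Bmp7 at 6.59 ± 1.43 TPM, Bmp3 at 3.52 ± 2.49 TPM, Bmp4 at 3.11 ± 0.743 TPM and Bmp2 at 2.15 ± 0.392 TPM. The ranges of neighbours in this order overlapped, except between Bmpr1a (13.6 to 22.7 TPM) and Bmp6 (4.14 to 11.1 TPM). Between its lowest and highest library Bmp3 spanned 10.6-fold in CPM, the widest range of the 10, followed by Id3 at 4.05-fold and Id1 at 3.57-fold. Bmpr1a (1.40-fold) and Id2 (1.46-fold) had the narrowest.

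**Figure D1:**
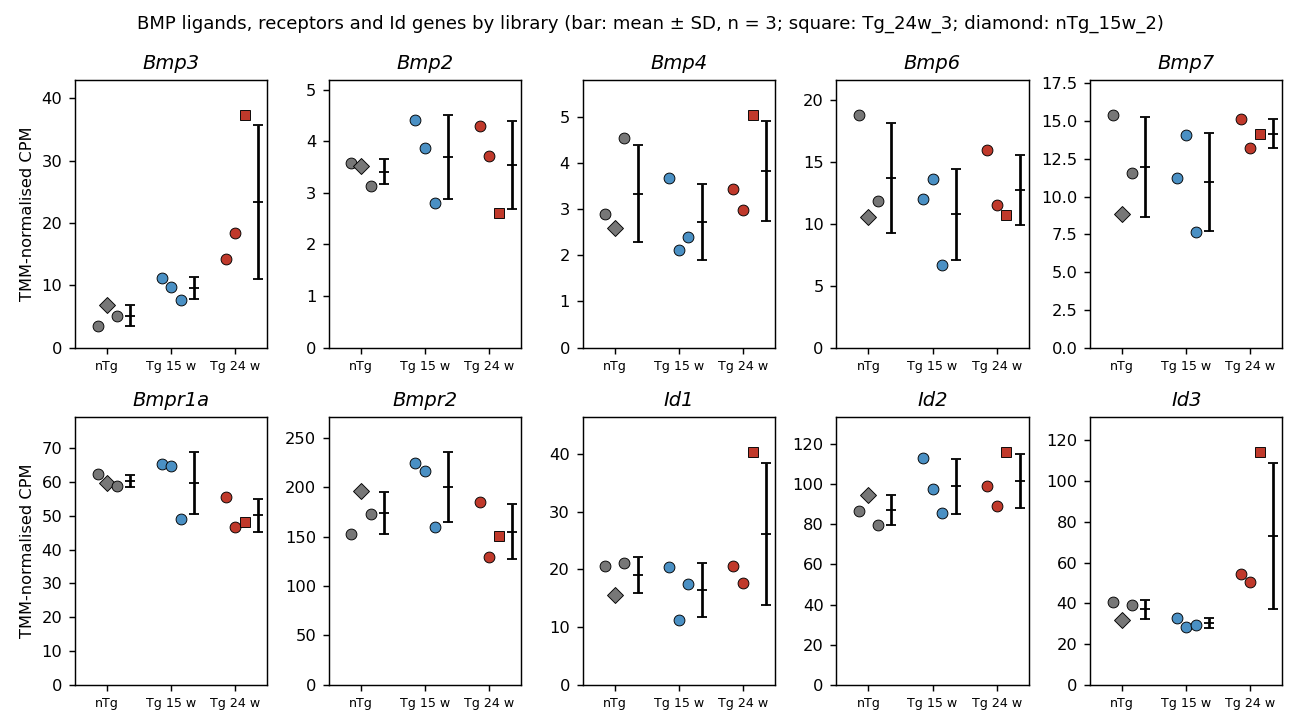
TMM-normalised CPM (vertical axis, from 0) of each gene in the 3 nTg libraries (grey, the diamond is nTg_15w_2), 3 Tg libraries at 15 weeks (blue) and 3 at 24 weeks (red, the square is Tg_24w_3); bars are mean ± SD. The Tg libraries of both ages lie above all nTg libraries for Bmp3, and the square is the highest point for Bmp3, Bmp4, Id1, Id2 and Id3.

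Bmp3 (ENSMUSG00000029335, chr5:98854415-98884396, plus strand, GRCm38) was counted 57 to 459 times per library. It had 3.51, 6.81 and 5.03 CPM in nTg_24w_1, nTg_15w_2 and nTg_24w_3. In Tg replicates 1, 2 and 3 the level was 11.1, 9.78 and 7.68 CPM at 15 weeks, and 14.2, 18.4 and 37.4 CPM at 24 weeks. The 3 groups did not overlap: every 15-week Tg library lay above every nTg library, and every 24-week Tg library above every 15-week one. The single nTg library of 15 weeks was the highest of the nTg libraries and lay just under the lowest 15-week Tg library. In these bulk samples, a change in the number of cells that express a gene and a change in the RNA per cell cannot be told apart.

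The group means of Bmp3 were 5.12 ± 1.65 CPM in nTg, 9.53 ± 1.73 CPM in the 15-week Tg libraries and 23.3 ± 12.4 CPM in the 24-week Tg libraries (SD, n = 3 each). Between Tg at 24 weeks and nTg the level of Bmp3 was 4.49 times as high (95% interval 2.67 to 7.55, log2 difference 2.17 ± 0.35 SE), the value for which the gene was chosen. Bmp3 was the 1 of the 10 genes called in that comparison by edgeR, where 0.132% of all genes were called. The call was lost in 9 of 16 alternatives, among them nTg libraries of 24 weeks alone (edgeR adjusted p = 0.137), the replicate block (0.0662), TPM with limma (0.0726) and leaving out any 1 nTg or 15-week Tg library (0.0748 to 0.165). The log2 difference was 1.65 without Tg_24w_3, 1.44 without both Tg_24w_3 and nTg_24w_1, and 2.44 against the 2 nTg libraries of 24 weeks alone. The 3 other libraries with Xist and no Ddx3y, Tg_15w_1, Tg_15w_3 and nTg_24w_3, had 11.1, 7.68 and 5.03 CPM of Bmp3; the part of sex in the value of Tg_24w_3 was not tested.

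At 15 weeks, before plaques, Bmp3 was 1.85 times as high in Tg as in nTg (95% interval 1.10 to 3.10, log2 difference 0.88 ± 0.34), but did not pass the threshold over all genes (edgeR quasi-likelihood test, unadjusted p = 0.0238, adjusted p = 1.0). This comparison shares its nTg libraries with the one that chose the gene. In it edgeR called 0% of genes after adjustment and DESeq2 called 2 genes, neither among the 10, while 3.29% of genes and 1 of the 10 had an unadjusted p under 0.05. With no filter on low counts edgeR called 65 genes, Bmp3 among them (log2 difference 0.89, adjusted p = 0.0209). Against the 1 nTg library of the same age the log2 difference of Bmp3 was 0.48 (adjusted p = 1.0). From 15 to 24 weeks within Tg the difference was 1.28 ± 0.33 (adjusted p = 0.215), and 0.77 without Tg_24w_3. Over both ages, with age as a term, Tg stood 1.58 ± 0.41 above nTg (adjusted p = 0.721) where 0% of genes were called; DESeq2 called 35 genes there, Bmp3 among them (adjusted p = 0.0276), and 941 genes had an unadjusted p under 0.05. That comparison includes the 24-week Tg and nTg libraries on which Bmp3 was chosen, so the call is no independent evidence. Over its alternatives the adjusted p of Bmp3 ranged from 1.42e-11 (no filter on low counts) to 1.0.

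The other ligands gave no such pattern. Bmp2 (chr2:133552159-133562885, plus strand), an inducer of bone and of glial fates, stood at 3.58, 3.53 and 3.13 CPM in nTg_24w_1, nTg_15w_2 and nTg_24w_3. It stood at 4.41, 3.86 and 2.80 CPM in Tg replicates 1, 2 and 3 at 15 weeks and at 4.30, 3.71 and 2.60 CPM at 24 weeks. The groups overlapped, and Tg_24w_3, the library highest for Bmp3, was the lowest of all 9 for Bmp2. The log2 difference was 0.11 (95% interval −0.45 to 0.67) at 15 weeks and 0.07 (−0.50 to 0.63) at 24 weeks against nTg.

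Bmp4 (chr14:46383520-46390669, minus strand), a ligand that directs stem cells towards astrocytes, stood at 2.90, 2.58 and 4.53 CPM in the nTg libraries, in the order used above. It stood at 3.67, 2.12 and 2.39 CPM in the 15-week Tg libraries and at 3.44, 2.98 and 5.05 CPM at 24 weeks. Tg_24w_3 and nTg_24w_3 were the highest, and the groups overlapped. The log2 difference from nTg was −0.29 (−0.98 to 0.40) at 15 weeks and 0.19 (−0.50 to 0.87) at 24 weeks, where it became −0.06 without Tg_24w_3. Counts of 40 to 74 for Bmp4 and 32 to 85 for Bmp2 leave these intervals wide.

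Bmp6 and Bmp7, close relatives that signal through the same receptors, were the most abundant ligands per length. Bmp6 (chr13:38345107-38500302, plus strand) stood at 18.8, 10.5 and 11.8 CPM in nTg, at 12.03, 13.6 and 6.64 CPM in the 15-week Tg libraries and at 15.9, 11.5 and 10.7 CPM in the 24-week Tg libraries. Bmp7 (chr2:172868012-172940321, minus strand) stood at 15.4, 8.84 and 11.6 CPM in nTg, at 11.2, 14.1 and 7.63 CPM at 15 weeks and at 15.1, 13.2 and 14.2 CPM at 24 weeks. For both genes nTg_24w_1 was the highest library and Tg_15w_3 the lowest. Summed choroid plexus markers (14 genes) were also highest in nTg_24w_1 (6971 CPM) and lowest in Tg_15w_3 (1871 CPM). The sum was nearly as low in Tg_24w_2 (1926 CPM), with 11.5 CPM of Bmp6 and 13.2 CPM of Bmp7. It was nearly as high in Tg_24w_1 (6793 CPM) and nTg_24w_3 (6784 CPM), with 15.9 and 11.8 CPM of Bmp6 and 15.1 and 11.6 CPM of Bmp7. The part of these markers in the levels of Bmp6 and Bmp7 was not tested. Bmp6 overlaps Txndc5 on the other strand, a gene with 9393 counts over the 9 libraries, and the strand setting of the counting is not given in the sources used here. The log2 difference of Bmp6 from nTg was −0.35 (−0.97 to 0.27) at 15 weeks and −0.10 (−0.72 to 0.51) at 24 weeks, turning to 0.19 without nTg_24w_1. That of Bmp7 was −0.12 (−0.64 to 0.40) and 0.25 (−0.27 to 0.76).

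The make-up of the ligand pool was followed in TPM. Bmp3 held 4.16%, 11.6% and 7.16% of the summed TPM of the 5 ligands in nTg_24w_1, nTg_15w_2 and nTg_24w_3. The share was 14.7%, 12.8% and 16.0% in Tg at 15 weeks and 15.3%, 22.4% and 35.3% in Tg at 24 weeks. In Tg_24w_3 Bmp3 held the largest share of the 5, and in each of the other 8 libraries Bmp6 or Bmp7 did. These shares rest on the values that chose Bmp3.

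**Figure D2:**
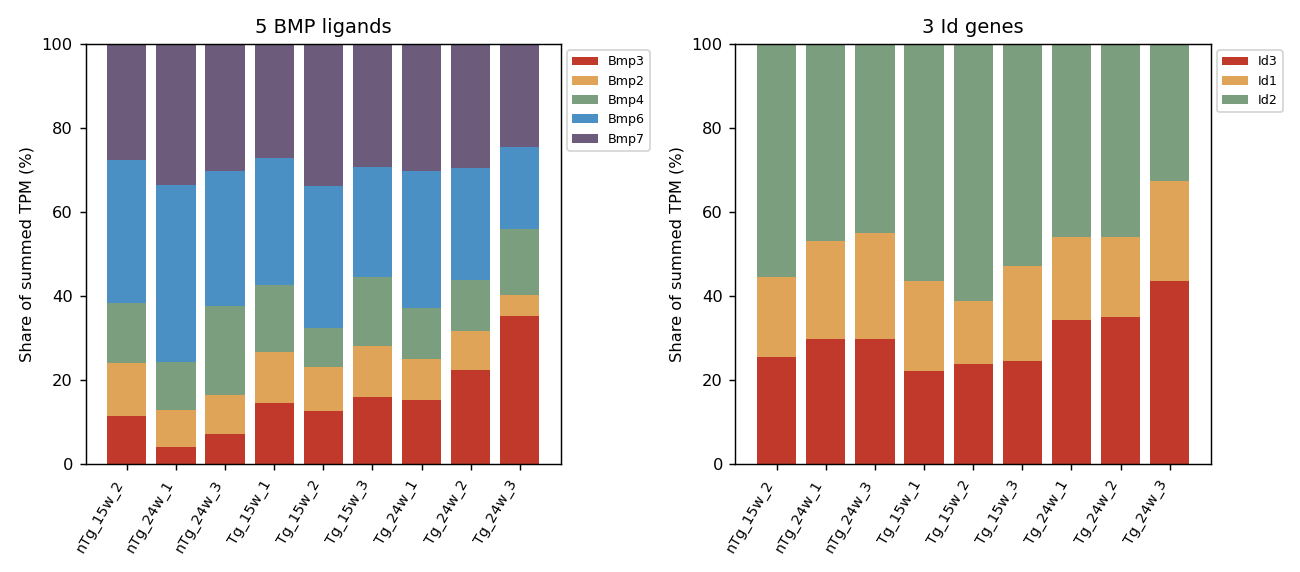
Share of the summed TPM (vertical axis, percent) held by each of 5 BMP ligands (left) and 3 Id genes (right) in each of the 9 libraries. The Bmp3 share runs from 4.16% in nTg_24w_1 to 35.3% in Tg_24w_3, and the Id3 share is 34.3% to 43.6% in the 24-week Tg libraries against 22.3% to 29.9% in the other 6.

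Of the receptors, Bmpr1a spanned 1.40-fold in CPM between its lowest and highest library and Bmpr2 1.735-fold, beside 1.69-fold for the ligand Bmp2. Bmpr1a (chr14:34410734-34503341, minus strand), a type I receptor that many BMPs use, stood at 62.4, 59.6 and 58.9 CPM in nTg_24w_1, nTg_15w_2 and nTg_24w_3. It stood at 65.3, 64.6 and 49.1 CPM in the 15-week Tg libraries and at 55.6, 46.7 and 48.1 CPM in the 24-week Tg libraries. Every 24-week Tg library lay below every nTg library, while the 15-week Tg libraries overlapped both groups. The log2 difference from nTg was −0.02 (95% interval −0.32 to 0.29) at 15 weeks and −0.27 (−0.57 to 0.04) at 24 weeks.

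Bmpr2 (chr1:59763400-59879014, plus strand), the type II partner to which BMPs bind, stood at 153, 196 and 173 CPM in nTg, at 225, 217 and 159.8 CPM in the 15-week Tg libraries and at 185, 129.5 and 151 CPM in the 24-week Tg libraries. The groups overlapped in each comparison. The log2 difference from nTg was 0.20 (−0.18 to 0.58) at 15 weeks and −0.17 (−0.55 to 0.21) at 24 weeks. From 15 to 24 weeks within Tg it was −0.37 ± 0.17 (edgeR adjusted p = 0.341).

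The Id genes are the readout closest to receptor activity. Smad1 and Smad5 with Smad4 are known to bind GGCGCC and GTCTG, so the 250 bases before the RefSeq start were searched for both on either strand (GTCTG reads CAGAC on the reverse strand; GGCGCC is its own reverse complement). RefSeq promoter windows (GRCm38.p6) were matched for 6 of the 10 genes: Bmp4, Bmp6, Bmpr1a, Bmpr2, Id2 and Id3; not for Bmp3, Bmp2, Bmp7 and Id1. The matches in Id3, of the Id genes the one with the largest difference at 24 weeks, and in Id2, the one with the smallest, are printed as 30 bases each, 5′ to 3′ on the gene's strand, capitals marking the match.
Id3 at chr4:136143643-136143672, plus strand: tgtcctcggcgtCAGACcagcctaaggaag
Id3 at chr4:136143742-136143771, plus strand: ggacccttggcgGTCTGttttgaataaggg
Id2 at chr12:25096306-25096335, minus strand: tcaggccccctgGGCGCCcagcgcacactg

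Both Id3 stretches lie before the RefSeq start but inside the first exon of the longer GENCODE transcript Id3-201, in its untranslated part, and the Id2 stretch lies in an intron of the GENCODE gene. Id2, Bmpr1a and Bmpr2 held GGCGCC, as did 9.59% of 32851 RefSeq windows, and Id3 and Bmp6 held GTCTG, as did 42.2%. These are letter matches and no measure of binding.

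Id3 (ENSMUSG00000007872, chr4:136143497-136145755, plus strand) stood at 40.6, 31.9 and 39.0 CPM in nTg_24w_1, nTg_15w_2 and nTg_24w_3. It stood at 32.9, 28.2 and 29.3 CPM in the 15-week Tg libraries and at 54.6, 50.3 and 114 CPM in the 24-week Tg libraries. Every 24-week Tg library lay above the other 6 libraries, and Tg_24w_3 lay 2.09-fold above the next. The 15-week Tg libraries overlapped the lower end of the nTg range.

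The means of Id3 were 37.2 ± 4.64 CPM in nTg, 30.1 ± 2.44 CPM in the 15-week Tg libraries and 73.0 ± 35.8 CPM in the 24-week Tg libraries (SD, n = 3 each). The log2 difference of Tg at 24 weeks from nTg was 0.97 ± 0.26 (95% interval 0.41 to 1.53), and 0.49 without Tg_24w_3. At 15 weeks it was −0.30 (−0.87 to 0.26) against the pooled nTg libraries, and as little as −0.08 among its alternatives. Of the nTg libraries, nTg_24w_1 and nTg_24w_3 stood at 40.6 and 39.0 CPM, and nTg_15w_2 at 31.9 CPM, within the range of the 15-week Tg libraries. From 15 to 24 weeks within Tg the level was 2.42 times as high (log2 difference 1.27 ± 0.26) and did not pass the threshold (edgeR adjusted p = 0.16); here edgeR called 0.0344% of genes and none of the 10. Of the 10, 3 had an unadjusted p under 0.05 (Bmp3, Id1 and Id3), as did 15.2% of all genes. DESeq2 called 284 genes in this comparison, Bmp3 (adjusted p = 0.0208) and Id3 (adjusted p = 0.00118) among them. Without Tg_24w_3, whose value is the farthest from its group, the log2 difference of Id3 was 0.79 and passed (edgeR adjusted p = 0.0496, 14 genes called). Over its alternatives the adjusted p ranged from 2.65e-09 (edgeR with no filter on low counts, where 701 genes were called against 6 in the main fit) to 0.613. Age and batch cannot be told apart in it.

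Id1 (chr2:152736251-152737410, plus strand), which in brain is strong in endothelium and in neural stem cells, stood at 20.6, 15.5 and 21.1 CPM in nTg. It stood at 20.4, 11.3 and 17.5 CPM in the 15-week Tg libraries and at 20.5, 17.7 and 40.4 CPM in the 24-week Tg libraries. Only Tg_24w_3 lay outside the range of the other libraries on the high side, and the groups overlapped. The log2 difference from nTg was −0.22 (−0.86 to 0.43) at 15 weeks and 0.45 (−0.19 to 1.09) at 24 weeks, and was 0.00 at 24 weeks without Tg_24w_3. From 15 to 24 weeks within Tg it was 0.67 ± 0.30 (adjusted p = 0.314), and 0.21 without that library.

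Id2 (chr12:25093799-25097140, minus strand), which neurons also express, stood at 86.9, 94.6 and 79.7 CPM in nTg, at 113, 97.6 and 85.8 CPM in the 15-week Tg libraries and at 99.1, 89.1 and 116 CPM in the 24-week Tg libraries. Its groups overlapped in each comparison. The log2 difference from nTg was 0.18 (−0.14 to 0.50) at 15 weeks and 0.22 (−0.10 to 0.54) at 24 weeks.

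Within the summed TPM of the 3 Id genes, the share of Id3 was 29.8%, 25.5% and 29.9% in nTg_24w_1, nTg_15w_2 and nTg_24w_3. It was 22.3%, 24.0% and 24.5% in Tg at 15 weeks and 34.3%, 35.1% and 43.6% in Tg at 24 weeks. The 24-week Tg libraries again lay above all others, with Tg_24w_3 closer to its group than in the CPM.

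Markers of vessels and blood moved with the library that was highest for Id1 and Id3. Summed over 10 endothelial markers the level was 188 CPM in Tg_24w_3 and 84.4 to 134.9 CPM in the other 8 libraries. Taken per marker, the median log2 difference from the other 8 libraries was 0.426 in Tg_24w_3, beside 0.32 in Tg_24w_1 and 0.287 in nTg_24w_1. Over 6 blood markers the sum was 786 CPM against 144.9 to 402 CPM. In summed CPM Tg_24w_3 was the lowest over 10 astrocyte (2245 CPM), 10 microglia (233.8 CPM) and 10 dentate granule markers (270.2 CPM). Per marker, the median log2 difference was lowest in Tg_24w_3 for microglia (−0.403), in Tg_24w_2 for astrocytes (−0.155) and in Tg_24w_1 for dentate granule cells (−0.522). By group the summed endothelial markers ranged from 108.9 to 188 CPM in the 24-week Tg libraries, 84.4 to 125 CPM in the 15-week Tg libraries and 95.4 to 134.9 CPM in nTg. No marker of these lists was at 0 in any library, and their part in the Id1 and Id3 values was not tested. The differences of Bmp3 and Id3 without Tg_24w_3 are those given above.

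**Figure D3:**
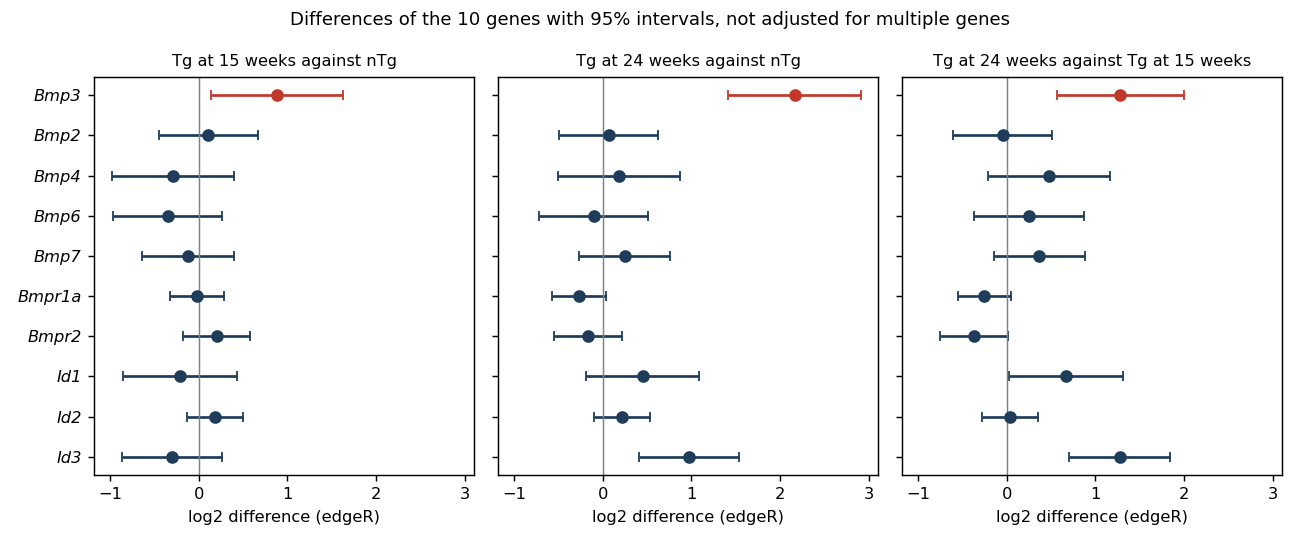
Log2 differences from edgeR (horizontal axis) with 95% intervals, not adjusted for the number of genes, for the 10 genes in 3 comparisons; Bmp3 is red. Between Tg at 24 weeks and nTg, where Bmp3 was chosen, the points of Bmp3 (2.17) and Id3 (0.97) lie farthest to the right. At 15 weeks, against nTg libraries of both ages, the Id3 point lies at −0.30.

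Read as counts, the 10 genes held 1 without overlap between all Tg and all nTg libraries (Bmp3, higher), against 1.12% of all genes tested that were higher in this way. At 15 weeks 1 of the 10 lay wholly above nTg, again Bmp3, against 4.85% of all genes. At 24 weeks 2 lay wholly above nTg (Bmp3 and Id3) and 1 wholly below (Bmpr1a), where the shares of all genes were 9.72% and 7.14%. Between Tg at 24 and at 15 weeks 2 lay wholly higher (Bmp3 and Id3), against 10.6% of all genes. The median log2 difference of the 10 was 0.20 at 24 weeks against nTg, beside 0.03 over all genes, and −0.07 at 15 weeks, beside 0.00. Bmp3 is in every one of these counts and in the medians, though it was chosen for its difference at 24 weeks. Besides Bmp3, only Id3 (higher) and Bmpr1a (lower) were without overlap in any of the comparisons.

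Whether Bmp3 moved with the other 9 genes was asked across the 9 libraries on the log2 CPM scale. The test was exact permutation over the pairings, two-sided, with adjustment over the 9 relations. It treats the libraries as exchangeable, though they fall into groups of genotype and age. Bmp3 was chosen for a difference between such groups, so a small p can reflect a group difference that both genes share. None of the 9 relations passed after adjustment. The closest were Id3 (r = 0.72, p = 0.0291, adjusted p = 0.154; Spearman's rho = 0.50, p = 0.178, adjusted p = 0.533; exact permutation test) and Id2 (r = 0.70, p = 0.0341, adjusted p = 0.154; rho = 0.72, p = 0.0369, adjusted p = 0.332). Without the 2 libraries farthest from the median of Bmp3, Tg_24w_3 and nTg_24w_1, r was 0.57 for Id3 and 0.46 for Id2, with exact permutation p-values of 0.184 and 0.296; this leaves 7 libraries and a narrower range of Bmp3. Without Tg_24w_3 alone r was 0.34 for Id3 and 0.50 for Id2 (exact permutation p = 0.406 and 0.205). For Id3 this was lower than the 0.57 found without both libraries. For Id1 r was 0.49 (exact permutation p = 0.169, adjusted p = 0.38) with rho = 0.10 (p = 0.81, adjusted p = 0.81), and 0.00 without those libraries.

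With the other ligands r of Bmp3 was 0.39 for Bmp4, 0.25 for Bmp7, −0.15 for Bmp2 and −0.20 for Bmp6, with exact permutation p-values from 0.306 to 0.71 (adjusted 0.551 to 0.71). With the receptors r was −0.59 for Bmpr1a (exact permutation p = 0.0924, adjusted p = 0.277) and −0.21 for Bmpr2 (p = 0.594, adjusted p = 0.692). On the log2(TPM + 1) scale the relation with Bmpr1a was r = −0.90 and passed (exact permutation p = 0.00126, adjusted p = 0.0114), with rho = −0.73 (p = 0.0311, adjusted p = 0.28). Tg_24w_3 had both the highest Bmp3 (9.08 TPM) and the lowest Bmpr1a (13.6 TPM). The permutation on the TPM scale also treats grouped libraries as exchangeable, and this relation was not recomputed with any library left out. On the log2 CPM scale, where it had not passed, r with Bmpr1a was −0.43 without Tg_24w_3 (exact permutation p = 0.283). It was −0.35 without the 2 libraries farthest from the median of Bmp3 (exact permutation p = 0.435). The batches hold 5 and 4 libraries, and no correlation was computed over fewer than 6.

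Among the 6 Tg libraries alone, a set chosen after seeing the data, Bmp3 and Id3 had r = 0.97 (exact permutation p = 0.00833, adjusted p = 0.075) and rho = 0.89 (p = 0.0333, adjusted p = 0.30). Bmp4 had r = 0.82 (exact permutation p = 0.0486, adjusted p = 0.219) and Id1 r = 0.81 (p = 0.0736, adjusted p = 0.221) with Bmp3 in the same set. These libraries fall into the 2 ages, and the 3 of 24 weeks were the higher for both genes. Over all libraries but Tg_24w_3, r of Bmp3 was −0.18 with Id1 and −0.07 with Bmp4. In the plot of Bmp3 against the Id genes, the 2 nTg libraries of lowest Bmp3, nTg_24w_1 and nTg_24w_3, had more Id3 (40.6 and 39.0 CPM) than the 15-week Tg libraries (28.2 to 32.9 CPM), while nTg_15w_2 (31.9 CPM) lay within their range.

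**Figure D4:**
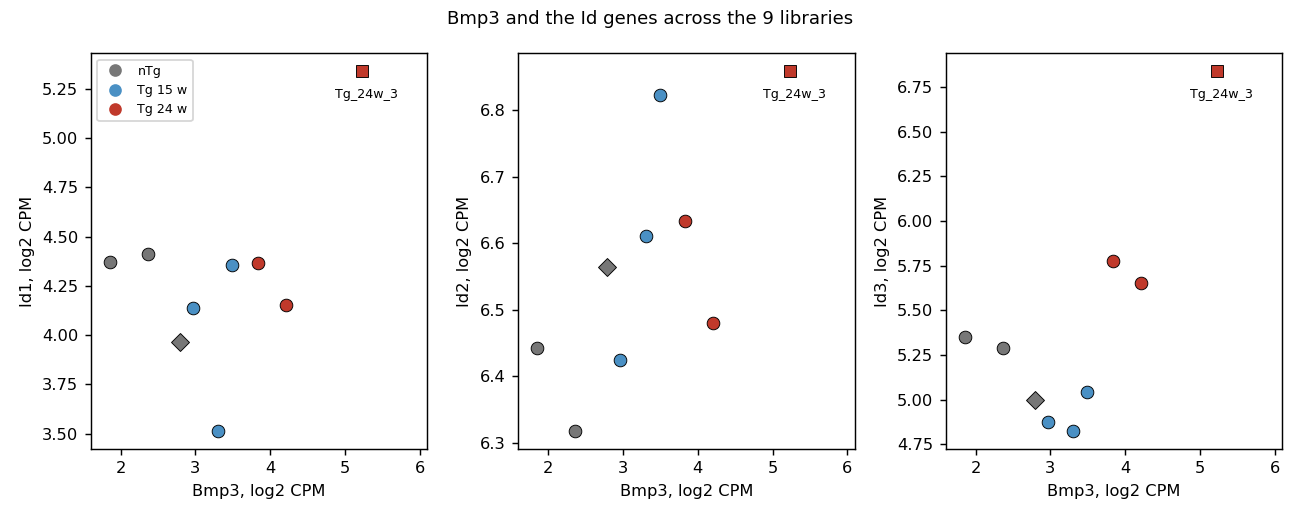
Bmp3 (horizontal axis) against Id1, Id2 and Id3 (vertical axes), all in log2 CPM, in the 9 libraries: nTg grey (the diamond is nTg_15w_2), Tg at 15 weeks blue, Tg at 24 weeks red (the square is Tg_24w_3). The square lies at the upper right of each panel, and without it r is 0.34 for Id3, 0.50 for Id2 and −0.18 for Id1.

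Among 13431 other genes with a mean of at least 1 CPM, 7.62% had a correlation with Bmp3 at least as high as that of Id3, 9.05% as high as that of Id2 and 23.1% as high as that of Id1. The 5 most like Bmp3 over the 9 libraries, by Pearson's r as a description, were Rspo3 (0.985), an enhancer of Wnt signalling, Th (0.975), the rate-limiting enzyme of dopamine synthesis, Adamts13 (0.972), the protease of von Willebrand factor, Slc6a7 (0.963), a brain proline transporter, and Zdhhc22 (0.946), of the palmitoyltransferase family. Rspo3 ran from 10.7 CPM in nTg_24w_1 to 28.9 CPM in Tg_24w_3, with 14.3 to 18.3 CPM in the 15-week Tg libraries. The 5 most like Id3 were Tpbgl (0.985), Spsb2 (0.98), Prcp (0.98), Ninj1 (0.977) and Rsph9 (0.977). The 9 libraries share group, age and the outlying Tg_24w_3, which these values of r also reflect.

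The rest of the pathway was read from 74 further genes in 5 lists, of which 58 passed the filter. None of the 58 was called by the main edgeR fit in any of the 4 comparisons. At an unadjusted p under 0.05 stood 6 for genotype over both ages and 5 at 15 weeks against nTg. There were 9 at 24 weeks against nTg and 11 between the ages in Tg. DESeq2 called 0, 0, 1 and 2 of the 58, where it called 35, 2, 218 and 284 genes in all. All genes tested stood at 5.39%, 3.29%, 13.0% and 15.2% by the unadjusted p. With no filter on low counts edgeR called 1, 2, 2 and 4 of 71 pathway genes, where it called 135, 65, 559 and 701 genes in all. Apart from the 1 for genotype, these were Sostdc1 and Msx1 at 15 weeks and Nbl1 and Fst at 24 weeks. Between the ages they were Sostdc1, Nbl1, Msx1 and Acvr2a. Without both Tg_24w_3 and nTg_24w_1 edgeR called 2 pathway genes at 24 weeks and 2 between the ages, where it called 107 and 71 genes in all.

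Extracellular antagonists and proteases (17 of 20 tested) held the widest differences from nTg. At 24 weeks Nbl1, which binds BMPs and keeps them from their receptors, stood at 106, 102 and 174 CPM in Tg replicates 1, 2 and 3 against 67.5, 75.7 and 81.2 CPM in nTg_24w_1, nTg_15w_2 and nTg_24w_3. The groups did not overlap, while 9.72% of all genes tested lay wholly higher in this comparison. The log2 difference of Nbl1 was 0.76 ± 0.20 (edgeR adjusted p = 0.223), and DESeq2 called it (adjusted p = 0.0413). Without Tg_24w_3 the difference was 0.47 (edgeR adjusted p = 0.259). Fst, or follistatin, which binds activins and some BMPs, stood at 0.657, 0.366 and 1.30 CPM in the 24-week Tg libraries against 0.986, 2.73 and 2.64 CPM in nTg (−1.51 ± 0.49, adjusted p = 0.287). Its groups overlapped through nTg_24w_1; without both Tg_24w_3 and nTg_24w_1 the difference was −2.39 and passed (adjusted p = 0.0122). Fstl1, a secreted follistatin-like protein that can bind Bmp4, had a log2 difference of 0.59 ± 0.20 from nTg (adjusted p = 0.303), and of 0.30 without Tg_24w_3.

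Sostdc1, an antagonist of BMP and Wnt signalling that the choroid plexus makes in quantity, stood at 37.7, 23.4 and 25.4 CPM in nTg, at 11.1, 13.1 and 6.59 CPM in the 15-week Tg libraries and at 29.1, 11.0 and 33.3 CPM in the 24-week Tg libraries. At 15 weeks its log2 difference from nTg was −1.49 ± 0.36 (edgeR adjusted p = 1.0, and 8.94e-11 with no filter on low counts). Msx1, a homeobox target of BMPs, had −0.91 ± 0.33 in the same comparison (adjusted p = 1.0; −0.52 without nTg_24w_1) and differed by 1.17 ± 0.33 between the ages in Tg (adjusted p = 0.215), or by 0.74 without Tg_24w_3; DESeq2 called both genes between the ages (adjusted p = 0.0363 for Sostdc1 and 0.0352 for Msx1). Sostdc1 is itself 1 of the 14 choroid plexus markers, whose sum was 1871 to 3991 CPM in the 15-week Tg libraries, 1926 to 6793 CPM in the 24-week Tg libraries and 5204 to 6971 CPM in nTg; the part of choroid plexus tissue in these differences was not tested. At 15 weeks the noggin gene Nog had a log2 difference of 0.39 ± 0.19 and Grem1, or gremlin, of 0.57 ± 0.21 (adjusted p = 1.0 for both).

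The Smads and their regulators stood mostly below nTg. Of 12 tested, 10 had a negative log2 difference at 24 weeks (median −0.30, against 0.03 over all genes) and 10 at 15 weeks (median −0.08, against 0.00), with none called. At 24 weeks the smallest p-values were those of Smurf2, a ubiquitin ligase that marks Smads for degradation (−0.41 ± 0.14, adjusted p = 0.303), Smad7, an inhibitory Smad (−0.46 ± 0.18, adjusted p = 0.34), and Skil, a co-repressor of Smads (−0.39 ± 0.19, adjusted p = 0.413). Smad7 stood at 10.5, 9.31 and 11.6 CPM in the 24-week Tg libraries, 13.1, 12.4 and 12.2 CPM in the 15-week Tg libraries and 17.9, 14.0 and 11.3 CPM in nTg, so its groups overlapped. Without nTg_24w_1 the difference of Smad7 was −0.27, and without Tg_24w_3 that of Skil was −0.60. At 15 weeks Smad6, the other inhibitory Smad, had −0.92 ± 0.40 (adjusted p = 1.0), but 0.03 against the nTg library of the same age. It stood at 1.38, 1.32 and 1.264 CPM in the 15-week Tg libraries, at 1.29 CPM in nTg_15w_2 and at 2.40 and 3.86 CPM in nTg_24w_1 and nTg_24w_3, so nTg_15w_2 lay within the range of Tg and the other 2 above it. Smad5 had −0.32 ± 0.14 at 15 weeks (adjusted p = 1.0), and −0.19 without nTg_24w_1.

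Of the other receptors 11 of 12 were tested, with 7 positive differences at 24 weeks (median 0.05) and 6 at 15 weeks (median 0.02). Acvr2a, a type II receptor for activins and BMPs, stood at 41.0, 32.5 and 32.1 CPM in the 24-week Tg libraries against 60.3, 62.6 and 45.6 CPM at 15 weeks. The log2 difference between the ages was −0.67 ± 0.19 (edgeR adjusted p = 0.215), and the nTg libraries, at 33.8, 52.2 and 53.6 CPM, spanned both ages. Acvr1c, a type I receptor for activins and nodal, had a log2 difference of 0.50 ± 0.18 from nTg at 24 weeks (adjusted p = 0.32), and of 0.33 without Tg_24w_3. Eng, or endoglin, an endothelial co-receptor, was 0.54 ± 0.20 higher at 24 than at 15 weeks in Tg (adjusted p = 0.256).

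Of the other ligands 6 of 18 passed the filter, with 3 positive and 3 negative differences at 24 weeks (median −0.03). Gdf10, also called Bmp3b and the nearest relative of Bmp3, had a log2 difference of −0.52 ± 0.21 from nTg at 24 weeks (adjusted p = 0.343; −0.35 without Tg_24w_3) and of 0.08 ± 0.21 at 15 weeks (adjusted p = 1.0; −0.06 against the nTg library of the same age). Inhbb, an activin subunit, had −0.54 ± 0.28 at 15 weeks (adjusted p = 1.0). The other targets (12 of 12 tested) had 10 positive differences at 24 weeks (median 0.20) and 4 at 15 weeks (median −0.21). Id4, the remaining Id gene, had 0.26 ± 0.18 at 24 weeks (adjusted p = 0.537; 0.04 without Tg_24w_3), and Hes1, a Notch target that BMPs also induce, −0.36 ± 0.27 at 15 weeks (adjusted p = 1.0).

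**Figure D5:**
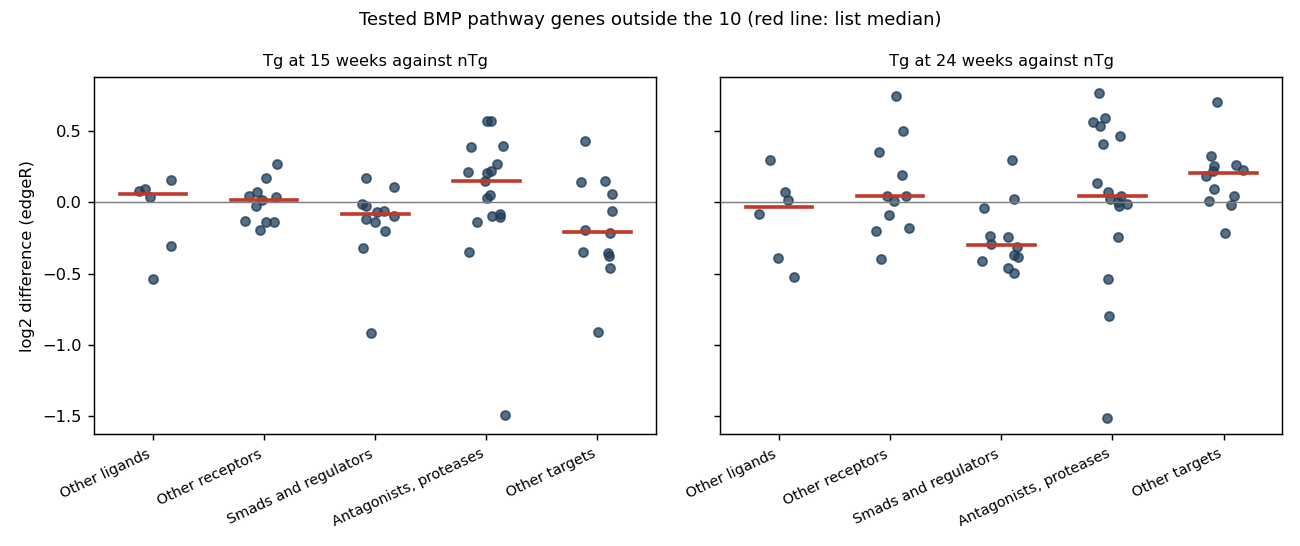
Log2 differences from edgeR (vertical axis) of the 58 tested pathway genes outside the 10, by list, at 15 weeks (left) and 24 weeks (right) against nTg; each point is a gene and the red line is the list's median. Smads and regulators lie lowest at 24 weeks (median −0.30), and the lowest points are Sostdc1 (−1.49) at 15 weeks and Fst (−1.51) at 24 weeks.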

How the data were processed

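RNA of mouse hippocampus was sequenced in 9 libraries; per the labels' protocols, RNA was extracted with the RareRNA kit and libraries were made with the KAPA mRNA HyperPrep kit. Per the submitters' processing notes the mouse build was GRCm38 and the tools were featureCounts 2.0.0, HISAT2 2.1.0, Trimmomatic 0.38, CASAVA and DESeq2 1.26.0, listed without settings; the strand setting of the counting is not given in the sources used here. Raw counts of reads per gene, whole numbers without normalization, were deposited by the authors, and every count test used them. TPM values were computed and deposited by the authors and served to compare genes by level and as an alternative on the log2(TPM + 1) scale; FPKM was not used. Identifiers, starts and ends of all 55536 genes were those of GENCODE M21.

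Counts were tested with edgeR 4.0.16 in R 4.3.3 (glmQLFit and glmQLFTest, TMM, filterByExpr, two-sided, Benjamini-Hochberg over the 17457 genes kept, threshold 0.05). Genotype was fitted over all libraries with age as a term; the other comparisons came from 1 fit with 3 groups, in which the nTg libraries of both ages were pooled because 15 weeks has 1. Intervals are log2 differences with SE from the F statistic. CPM values use TMM factors; log2 CPM adds a prior count of 2. Genes without a symbol held 1.88% of the counts and stayed in the fit. Alternatives were DESeq2 1.42.0, RLE factors, no filter, limma 3.58.1 on TPM, the replicate number as a block, leaving out libraries and same-age controls. The code was tested on simulated data. Correlations used scipy 1.17.1 with exact permutation over all 362880 pairings of 9 libraries (720 of 6). Named pathway genes were taken from the 3 of smallest p per list and comparison, and the genes most like Bmp3 and Id3 were the 5 of highest r. The 10 genes and the lists were chosen with earlier results of these data known.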

Additional observations from a re-analysis of the deposited data

Results flagged for a closer look

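Within the 6 Tg libraries, the highest one stood far from the others for 3 of the 10 genes, and it was Tg_24w_3 each time. The gap to the next library, as a share of the whole range, was 0.64 for Bmp3 (37.4 CPM, next 18.4 CPM), 0.683 for Id1 (40.4 CPM, next 20.5 CPM) and 0.694 for Id3 (114 CPM, next 54.6 CPM), each above Dixon's 95% critical value for 6 values. Chance flags about 1 in 20 such groups, and these 6 libraries are of 2 ages. Tg_24w_3 had the fewest counts and the highest summed endothelial and blood markers, and it alone of the 24-week Tg libraries had Xist (83.1 CPM) and no Ddx3y; their part in these values was not tested.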

How the results depend on the processing

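Counts of genes called (main: 0 for genotype, 0 at 15 weeks, 23 at 24 weeks, 6 between the ages in Tg) moved with the test. They were 35, 2, 218 and 284 with DESeq2, and 135, 65, 559 and 701 with no filter on low counts. TPM with limma gave 12 at 24 weeks and 2 between the ages. Without both Tg_24w_3 and nTg_24w_1 there were 3 for genotype, 107 at 24 weeks and 71 between the ages, and same-age controls gave 4 at 24 weeks. Leaving out each library in turn gave 0 to 5, 0 to 0, 4 to 36 and 1 to 14; the highest counts came without Tg_24w_3. The cause of these moves was not tested.

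Replicate numbers did not pair the libraries: deviations of same-numbered Tg libraries of both ages correlated at −0.11, 0.14 and −0.05. The replicate block gave 1 gene called for genotype and 15 at 24 weeks, and Bmp3 there 2.13 (adjusted p = 0.0662).

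At 24 weeks against nTg the log2 difference of Bmp3 stayed positive in all 16 alternatives (1.44 to 2.44), with adjusted p from 9.73e-20 to 0.165 and 7 of them past the threshold. Leaving out 1 library gave edgeR adjusted p from 0.0116 to 0.165. The fit with no filter on low counts gave low adjusted p-values in general, calling 559 genes there against 23 in the main fit. Bmp3 missed with TPM (adjusted p = 0.0726), with same-age controls (0.137), with the block, and without any 1 library of Tg at 15 weeks or nTg (0.0748 to 0.165). Id3 stayed positive there and between the ages. At 24 weeks it passed with DESeq2 (adjusted p = 0.0362) and with no filter (2.27e-05).

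Signs of small differences turned. Without both Tg_24w_3 and nTg_24w_1 they were, for genotype, −0.22 (Bmp4), 0.11 (Bmp6) and −0.035 (Id1); at 15 weeks 0.11 (Bmp7), 0.012 (Bmpr1a) and −0.041 (Gdf10); at 24 weeks −0.15 (Bmp4) and 0.28 (Bmp6); and between the ages 0.11 (Bmp2) and −0.091 (Id2). With same-age controls they were, at 15 weeks, 0.072 (Bmp4), 0.029 (Bmp6), 0.31 (Bmp7), 0.00073 (Bmpr1a), 0.082 (Id1), −0.058 (Gdf10) and 0.030 (Smad6), and 0.018 (Klf10) at 24 weeks. With TPM they were −0.012 (Bmp2) and −0.031 (Bmp4) for genotype, −0.046 (Bmp2) at 24 weeks and −0.053 (Id2) between the ages. In the 24-week libraries alone Bmp4 had −0.0047.

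Leaving out 1 library gave these ranges where a sign turned. For genotype they were −0.021 to 0.17 (Bmp2), −0.10 to 0.22 (Bmp4), −0.28 to 0.069 (Bmp6), −0.12 to 0.023 (Bmpr2), −0.041 to 0.32 (Id1), −0.43 to 0.017 (Klf10) and −0.11 to 0.83 (Acvr2b). At 15 weeks they were −0.036 to 0.28 (Bmp2), −0.34 to 0.10 (Bmp7), −0.085 to 0.11 (Bmpr1a) and −0.044 to 0.15 (Gdf10). At 24 weeks they were −0.11 to 0.23 (Bmp2), −0.057 to 0.47 (Bmp4), −0.32 to 0.19 (Bmp6), −0.0017 to 0.63 (Id1), −0.0039 to 0.49 (Gdf9) and −0.53 to 0.017 (Klf10). Between the ages they were −0.23 to 0.12 (Bmp2), −0.0081 to 0.46 (Bmp6) and −0.080 to 0.12 (Id2).

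Of the correlations with Bmp3, 1 partner (Bmpr1a) passed on the TPM scale. That relation was not recomputed with any library left out. On the log2 CPM scale, where it did not pass, its r was −0.59 over all 9 libraries and −0.43 without Tg_24w_3. The sign turned for Bmp6 within Tg (0.23) and without the 2 farthest libraries (0.37), for Bmp2 without those (0.63) or without Tg_24w_3 (0.50), for Bmp4 (−0.13 and −0.065) and for Id1 without Tg_24w_3 (−0.18).

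Depth limits the low ligands: Bmp2 and Bmp4 rested on 32 to 85 counts per library. Groups of 3, with 1 nTg library at 15 weeks, leave intervals of about 1 log2 unit for most of the 10 genes.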
